A study of Mus musculus with 2 samples.

Results

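The genes described here are 10 members of the HoxC and HoxD clusters, namely Hoxc4, Hoxc5, Hoxc6, Hoxc8, Hoxc9, Hoxc10, Hoxd3, Hoxd4, Hoxd8 and Hoxd9. They were chosen by name: every probe carrying one of these gene names on the array was taken, which gave 13 of 41150 probes, 7 for HoxC and 6 for HoxD. RNA came from the aortic wall of C57Bl/6 wild-type mice, a common inbred strain, aged 16 weeks, after the endothelium had been washed out with the detergent Triton X-100. One pool, the atherosclerosis-prone region, held the arch together with the aortic root and the proximal 2 mm of thoracic aorta, and the other, the resistant region, held the 6 mm that follow, called central thoracic aorta, each from the same number of animals (6 mice, 3 males and 3 females). Both pools were hybridised together to 2 two-colour Agilent arrays, the arch pool carrying Cy5 on array 1 and Cy3 on array 2. The arrays repeat the same RNA, so with 1 pool per region there is no biological replicate and no test; values after ± are the distance of either array from their mean and measure technical error only. In pooled tissue, fewer cells of a type and less RNA per cell cannot be told apart.

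Hox genes encode homeodomain transcription factors that give cells their position along the body axis. Within each cluster the genes are transcribed from the same strand, and genes at the low-numbered end are used nearer to the head than those at the high-numbered end. Genes of the same number in different clusters are paralogs. Vascular smooth muscle retains parts of this code in the adult, and the wall of the arch and of the descending aorta are known to have different embryonic origins, neural crest and second heart field on one side and somites on the other.

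One member differed between the regions. Hoxc6, of paralog group 6, whose expression in the embryo begins near the neck and thorax boundary, was 1.91-fold higher in the thoracic pool (log2 ratio of arch over thoracic aorta −0.93 ± 0.10). A gene was called different when both arrays gave a difference of 1.5-fold or more with the same sign. By that rule 1 of the 8 members with a measurable probe was lower in the arch, against 0.229% of all 21366 measured genes, and 0 of the 8 were higher, against 0.257%. Of its neighbours, Hoxc5 measured 0.22 ± 0.11, and Hoxc8 was too dim to be counted as measured. The median of the 8 members was 0.05, and that of all genes 0.00.

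RefSeq promoters (build GRCm38.p6) were at hand for 5 of the 10 members, Hoxc4, Hoxd3, Hoxd4, Hoxd8 and Hoxd9. Those of Hoxc4 and Hoxd3, which were measured in both regions, and of Hoxd4, which passed the signal filter in the arch alone, are shown. None of these genes was called different, with Hoxd4 at 0.10 ± 0.05, so the promoters shown stand beside no regional difference. They are the 250 bases before the annotated start, 5′ to 3′ on the plus strand, at chr15:103034145-103034394, chr2:74711743-74711992 and chr2:74721728-74721977. The Hoxc4 start lies inside the annotated span of the gene. Capitals mark matches, on either strand, to 5 short motifs: the TATA box (TATAAA), the CCAAT box (CCAAT), the GC box (GGGCGG), the core site of nuclear receptors such as the retinoic acid receptor (AGGTCA, or TGACCT on the other strand), and a joint site of Hox proteins and their cofactors (TGATNNAT).
Hoxc4: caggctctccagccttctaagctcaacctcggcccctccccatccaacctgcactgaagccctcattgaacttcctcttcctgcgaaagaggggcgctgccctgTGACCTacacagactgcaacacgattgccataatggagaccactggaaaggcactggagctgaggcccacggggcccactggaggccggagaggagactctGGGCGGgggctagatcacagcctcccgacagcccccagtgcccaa
Hoxd3: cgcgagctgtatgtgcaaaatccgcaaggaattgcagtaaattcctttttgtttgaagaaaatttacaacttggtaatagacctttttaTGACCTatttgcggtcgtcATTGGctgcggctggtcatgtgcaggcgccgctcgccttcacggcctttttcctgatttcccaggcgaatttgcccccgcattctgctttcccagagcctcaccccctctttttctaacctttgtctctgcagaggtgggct
Hoxd4: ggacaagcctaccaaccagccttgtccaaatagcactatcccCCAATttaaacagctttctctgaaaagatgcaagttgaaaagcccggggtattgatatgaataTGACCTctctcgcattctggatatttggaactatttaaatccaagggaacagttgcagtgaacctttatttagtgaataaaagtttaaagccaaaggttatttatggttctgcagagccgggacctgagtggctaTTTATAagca
The receptor site AGGTCA was found in 4 of the 5 member promoters, all but Hoxd9, and in 14.0% of all 32851 promoter windows of this length. It began 146 bases before the start in Hoxc4, 161 in Hoxd3, 145 in Hoxd4 and 135 in Hoxd8. CCAAT was in 3 of the 5 (33.8% of all), GGGCGG in 2, Hoxc4 and Hoxd9 (32.7%), TATAAA in Hoxd4 alone (12.4%) and TGATNNAT in 0 (7.7%). The windows held between 40.4% GC (Hoxd4) and 65.2% (Hoxd9), against a median of 52.4%. These matches describe the letters and do not show that a factor binds there.

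Signals set how far each probe can be read. Negative control spots, 314 per array, had a median net signal (over local background) of 10.3 intensity units for Cy5 and 27.1 for Cy3 on array 1, and of 9.9 and 25.8 on array 2. Their 95th percentiles were 14.2 and 34.9 on array 1 and 16.4 and 38.6 on array 2. Of the 13 member probes 6 carried the scanner software's flag for a signal well above background in all 4 channels, and another 2 (Hoxd4 and Hoxd8) in the arch pool on both arrays and in the thoracic pool on neither. The remaining 5 probes met neither condition, which leaves Hoxc8 and Hoxd9 without a measurable probe. Hoxc10 and Hoxd3 each kept 1 of their 2 probes.

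**Figure D1:**
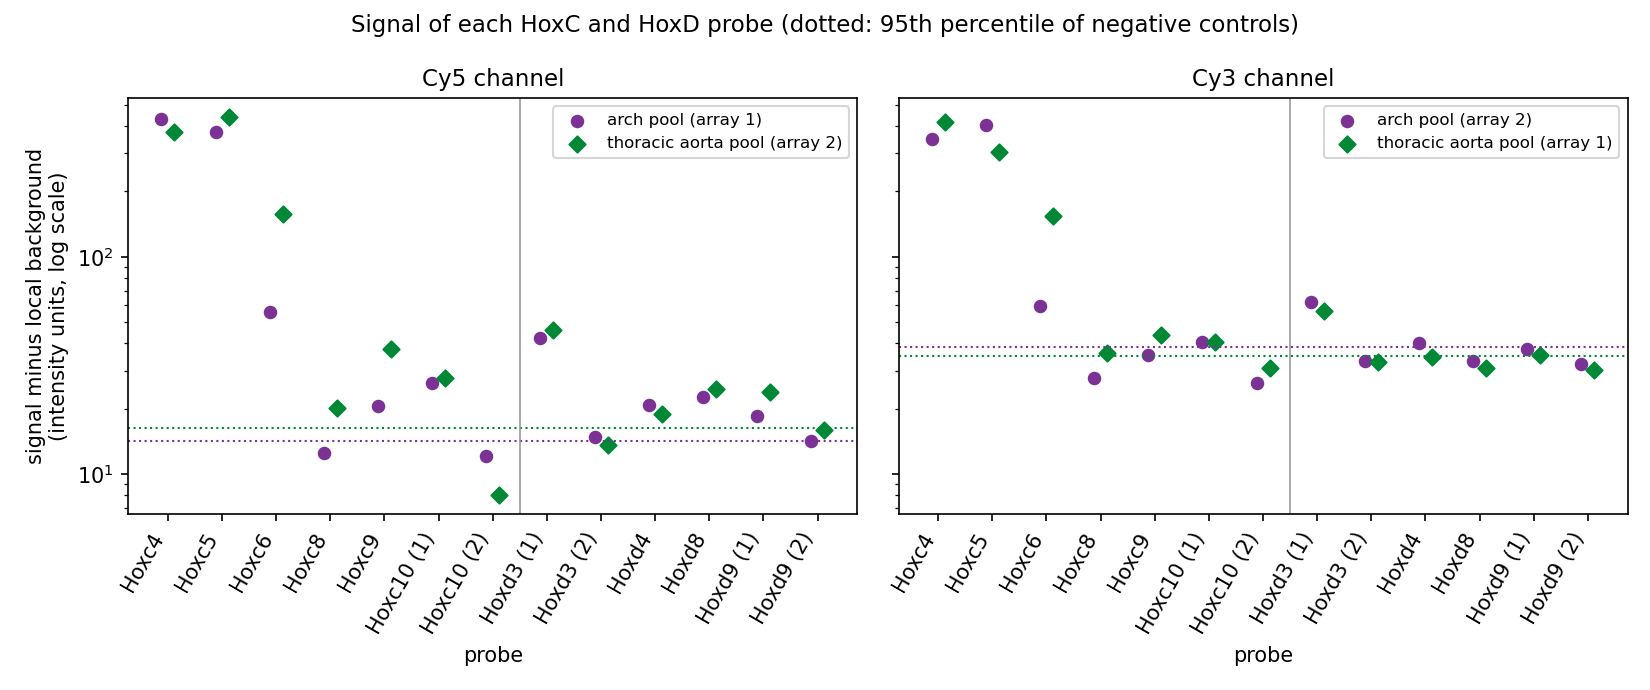
Signal minus local background of the 13 HoxC and HoxD probes (intensity units, log axis) in the Cy5 channel (left) and the Cy3 channel (right), with circles for the arch pool, diamonds for the thoracic pool and dotted lines at the 95th percentile of the negative controls of the same array and dye. Hoxc6 is far higher in the thoracic pool in both dyes (157.9 against 55.8 and 154.2 against 59.4), Hoxc4 and Hoxc5 lie well above the lines in both pools, and most of the other probes lie near them; heights of different probes cannot be compared.

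Hoxc4 and Hoxc5, the members of paralog groups 4 and 5 that are first used in the neck region of the embryo, gave clear signals in both regions. The Hoxc4 probe kept 430.7 units above local background in the arch pool against 415.5 in the thoracic pool on array 1, and 346.6 and 376.6 on array 2. Its log2 ratio was 0.09 on array 1 and 0.10 on array 2, and −0.05 as the mean with median centring in place of loess, so no direction can be given. The Hoxc5 probe kept 375.0 units in the arch pool against 302.8 in the thoracic pool on array 1, and 403.7 and 440.0 on array 2. Its ratio was 0.34 on array 1 and 0.11 on array 2, short of the 1.5-fold rule on both. With median centring it was 0.22 and −0.08, so no direction can be given for Hoxc5 either. None of the negative controls reached the signal of either probe in any channel.

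The Hoxc6 probe kept 55.8 units in the arch pool against 154.2 in the thoracic pool on array 1, and 59.4 and 157.9 on array 2. Both arch values lay below both thoracic values, whichever dye carried the region. The log2 ratio was −0.83 on array 1 and −1.04 on array 2. Of all measured genes only 24 had a lower mean ratio, which puts Hoxc6 at rank 25 of 21366. The scanner software's own ratio was −1.47 with a reported error of 0.27 on array 1 and −1.78 with an error of 0.28 on array 2, a 3.09-fold higher level in the thoracic pool. Among the 8 kept member probes, that of Hoxc6 alone had a ratio that exceeded the error on both arrays. Of all kept probes 6.7% did so, so 1 of 8 does not set the members apart. The offset of 50 that is added to each background-corrected signal pulls ratios toward 0, and with an offset of 0 the Hoxc6 ratio was −1.52 ± 0.22. Hoxc6 also met the rule with median centring, and missed a 2-fold rule because array 1 fell short. It met the rule with an offset of 0 and with the scanner software's ratio too. Both settings enlarge ratios and so are no check on the call. The share of all genes lower in the arch was 0.487% with an offset of 0, 0.599% with the scanner software's ratio and with the authors' value table, 0.351% with median centring in place of loess, 0.179% without a filter on dim probes, 0.243% when both regions had to be well above background, and 0.192% with the mean of a gene's probes. It was 0.29% on array 1 alone, 0.314% on array 2 alone, 0.0702% with a 2-fold rule and 0.524% with a 1.3-fold rule. The shares higher in the arch, in the same order, were 0.548%, 0.711%, 0.131%, 0.201%, 0.273%, 0.197%, 0.337%, 0.379%, 0.0421% and 0.627%.

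**Figure D2:**
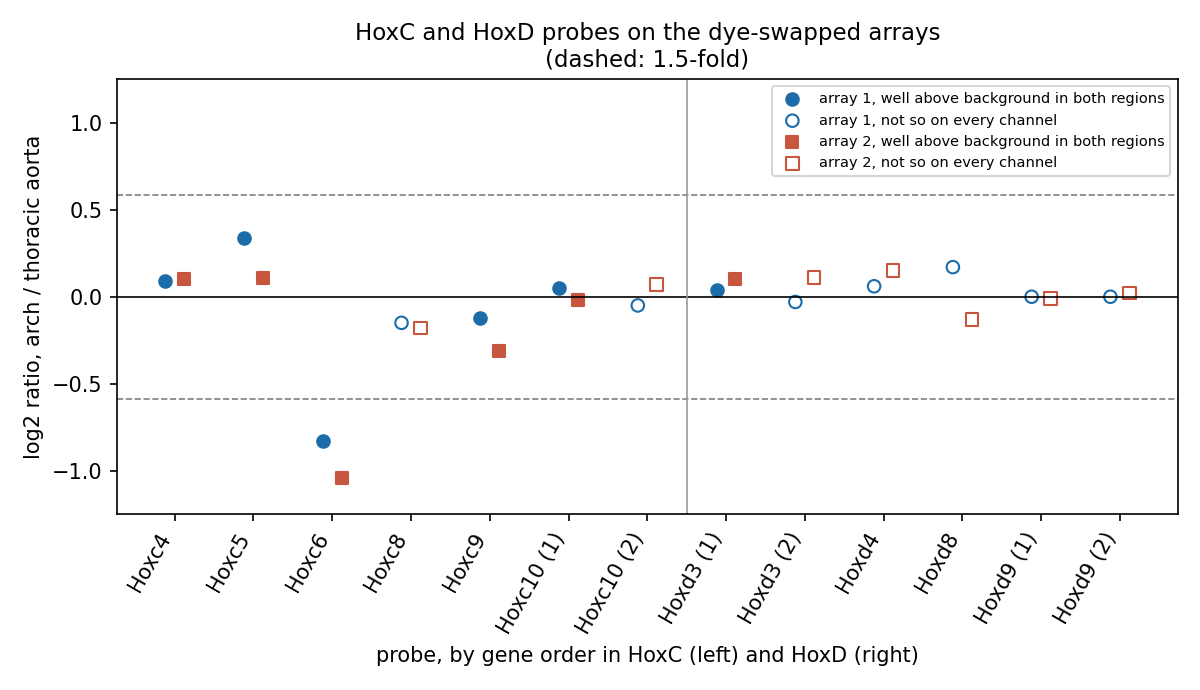
Log2 ratio of arch over thoracic aorta for the 13 probes in gene order along HoxC and HoxD, with circles for array 1, squares for array 2, open symbols where a probe was not well above background in every channel, and dashed lines at 1.5-fold. Hoxc6 lies at −0.83 and −1.04, below the line on both arrays, and the other probes lie between −0.31 and 0.34.

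Past Hoxc6 toward the high-numbered end, signals were close to those of the negative controls. Hoxc8, a gene of the thoracic region of the embryo, kept 12.5 units in the arch pool against 36.2 in the thoracic pool on array 1, and 27.6 and 20.1 on array 2. The probe was well above background in 1 of 4 channels, thoracic Cy3 on array 1. In each dye the arch value was the lower (12.5 against 20.1 in Cy5, 27.6 against 36.2 in Cy3), and 16.2% of the negative controls reached the arch signal on array 1 and 28.7% on array 2. Its ratio was −0.16 ± 0.01 with the main setting, −0.84 ± 0.23 with an offset of 0 and −1.32 ± 0.31 in the scanner software, whose error was 2.17 on array 1 and 2.38 on array 2. Neither array flagged the arch signal, and the probe was not counted as measured.

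Hoxc9, also of the thoracic region, was well above background in all 4 channels. It kept 20.7 units in the arch pool against 43.8 in the thoracic pool on array 1, and 35.5 and 37.9 on array 2. The arch value was the lower in each dye (20.7 against 37.9 in Cy5, 35.5 against 43.8 in Cy3), while 8.28% of the negative controls reached the arch signal on array 2. The ratio was −0.12 on array 1 and −0.31 on array 2. It was −0.71 ± 0.32 with an offset of 0, and the scanner software gave −0.69 and −1.20, which met the 1.5-fold rule, as 0.599% of all genes did. That software's error was 1.07 and 0.85, larger than the ratio on array 1 and smaller on array 2.

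Hoxc10, used at lumbar levels and in the hindlimb, had 2 probes, and the one well above background kept 26.2 units in the arch pool against 40.5 in the thoracic pool on array 1, and 40.4 and 27.7 on array 2. The pools were within 2 units of each other in either dye. Its ratio was 0.05 on array 1 and −0.02 on array 2. The other Hoxc10 probe was well above background in 0 of 4 channels, and 79.3% of the negative controls reached its thoracic signal on array 2.

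In the HoxD cluster no member was called. Hoxd3, a gene needed for the first neck vertebrae, was the only one of the 4 that was well above background in both pools. Its brighter probe kept 42.4 units in the arch pool against 56.4 in the thoracic pool on array 1, and 61.8 and 46.0 on array 2. The ratio was 0.04 on array 1 and 0.10 on array 2, small against the scanner software's error of 0.52 and 0.43. The second Hoxd3 probe was well above background in 0 of 4 channels and turned sign between the arrays (−0.03 and 0.11). In the RefSeq annotation Hoxd4 lies within the span of Hoxd3, and whether the probes separate their transcripts is not given in the sources used here.

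Hoxd4, the next gene toward the high-numbered end, kept 20.9 units in the arch pool against 34.6 in the thoracic pool on array 1, and 40.0 and 18.9 on array 2. It was well above background in the arch on both arrays and in the thoracic aorta on neither, so its thoracic level is uncertain. The fitted mean was 1.07-fold higher in the arch, and no firmer lower limit could be set. The arch value was the higher in each dye (20.9 against 18.9 in Cy5, 40.0 against 34.6 in Cy3). The ratio was 0.06 on array 1 and 0.15 on array 2. The scanner software gave 0.67 and 0.70, past the 1.5-fold rule on both arrays, as 0.711% of all genes were, with errors of 1.57 and 1.32 that are larger than the ratios. The probe was kept through its arch signal alone, so the sign of its ratio is favoured by the filter. In Cy3, 4.14% of the negative controls reached its arch signal and 5.41% its thoracic signal.

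Hoxd8 carried the same flags as Hoxd4, well above background in the arch alone, but its arrays disagreed. It kept 22.8 units in the arch pool against 30.9 in the thoracic pool on array 1, and 33.1 and 24.6 on array 2. Of the negative controls, 10.8% reached its arch signal on array 2. Its ratio was 0.17 on array 1 and −0.13 on array 2, and in the scanner software 1.15 and −0.66. In Cy5 the thoracic pool was the higher (24.6 against 22.8) and in Cy3 the arch pool (33.1 against 30.9). The mean was 0.02 ± 0.15, and the sign of the difference was not repeated.

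Both Hoxd9 probes were well above background in 2 of 4 channels. The first was so in neither channel of array 1 and in both of array 2, with 18.5 units in the arch pool against 35.2 in the thoracic pool on array 1, and 37.6 against 23.9 on array 2. The second was so in Cy3 on each array, with 14.3 and 30.3 units on array 1 and 32.0 and 16.0 on array 2. The ratios were −0.01 and 0.01 as means. The level of Hoxd9 was too near to that of the negative controls for a difference to be seen at this signal.

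Cy3 was the brighter dye on both arrays for 9 of the 13 probes, as for 68.6% of all gene probes, so a dim probe can be flagged as well above background by its dye. The arch value was lower in both dyes for 4 probes (Hoxc6, Hoxc8, Hoxc9 and the brighter Hoxc10 probe) and higher in both for 2 (Hoxd4 and the dimmer Hoxd3 probe). Among these 6, Hoxc6 alone had signals above 50 units in all 4 channels. The signals were not normalised between the arrays. Over all gene spots the median was also lower in the arch in both dyes (39.2 against 43.4 in Cy5, 54.4 against 55.9 in Cy3). The share of all probes lower or higher in both dyes was not counted. After loess, 9 of the 13 probes kept their sign between the arrays and 4 did not (both Hoxc10 probes, the dimmer Hoxd3 probe and Hoxd8). The 9 include both Hoxd9 probes, whose ratios were at most 0.02 in size. The share of all gene probes that kept their sign was not counted, so this count does not set the members apart. The distance of either array from the mean had an SD of 0.07 over all genes.

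**Figure D3:**
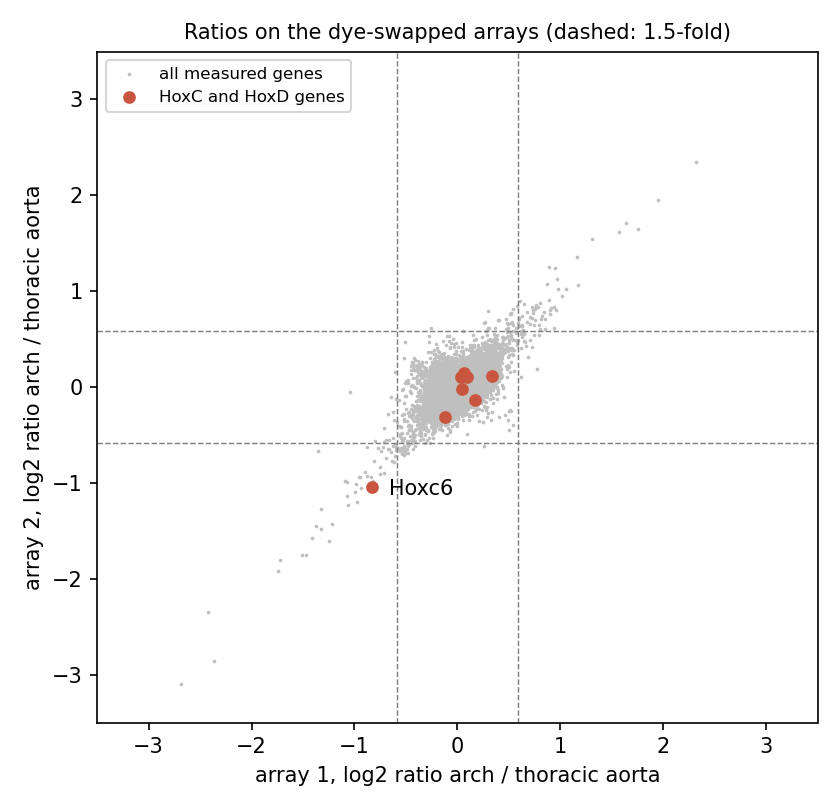
Log2 ratio of arch over thoracic aorta on array 1 (x) against array 2 (y) for all 21366 measured genes (grey) and the 8 measured HoxC and HoxD genes (red), with dashed lines at 1.5-fold. Hoxc6 lies at −0.83 and −1.04 among the genes lower in the arch on both arrays, and the other 7 lie inside the 1.5-fold lines, with means from −0.22 (Hoxc9) to 0.22 (Hoxc5); 93.1% of genes have a mean within 0.2 of 0.

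The other genes of the clusters and the partners of Hox proteins were read from lists. Of 8 further HoxC and HoxD genes, those nearest the ends of the clusters, 7 had probes and 2 were measured, Hoxd12 (0.02 ± 0.01) and Hoxd13 (−0.01 ± 0.09), both used mainly in limb and hindmost trunk. Neither was called, and Hoxc12, Hoxc13, Hoxd1, Hoxd10 and Hoxd11 were not well above background in a region on both arrays. Genes beside the clusters that are no Hox genes were not called either, 0 of 7 at HoxC, from −0.05 (Cbx5, a heterochromatin protein) to 0.05 (Hnrnpa1, an RNA-binding protein), and 0 of 6 at HoxD. There Evx2, a homeobox gene next to Hoxd13, measured 0.22 ± 0.04 and Mtx2, a mitochondrial outer membrane protein on the other side, 0.13 ± 0.04, which was −0.03 with median centring. All 9 TALE homeodomain cofactors, which bind DNA together with Hox proteins, were measured and 0 were called, with Meis2 at 0.33 ± 0.02, Meis1 at 0.14 ± 0.09 and Meis3 at −0.07 ± 0.02.

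Paralogs in the HoxA and HoxB clusters give a comparison, and 5 of their 13 measured genes were lower in the arch and 0 higher. The lowest were Hoxa7 (−2.89 ± 0.21) and Hoxb7 (−2.61 ± 0.25), whose group has no member in HoxC or HoxD. Hoxb3, of the group of Hoxd3 (0.07 ± 0.03), measured −0.99 ± 0.06. Hoxa3, of the same group and named after its value was seen, measured −0.01 ± 0.00. The group 6 paralogs of Hoxc6, named after their values were seen, measured 0.03 ± 0.08 (Hoxa6) and 0.10 ± 0.07 (Hoxb6, −0.04 with median centring, and with another probe at −0.97). In group 5, also named after their values were seen, Hoxa5 (−0.70 ± 0.03) and Hoxb5 (−0.89 ± 0.00) were lower in the arch, beside Hoxc5 at 0.22 ± 0.11.

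Markers of several cell types differed between the pools, and their part in the Hoxc6 difference was not tested. The labelled tissue was borne out by smooth muscle genes, of which 6 of 6 were measured and 0 called, with a median of −0.04 and summed signals of 118405.9 to 166665.5 units in the arch and 138176.6 to 175928.0 in the thoracic aorta. Brown adipocyte genes were higher in the arch in 4 of 5 cases (median 0.78, sums of 9093.7 to 10115.4 against 5571.5 to 7137.7), but in 1 of 5 with median centring. White adipocyte genes were so in 2 of 5 (0.37, sums of 33135.1 to 40676.6 against 26893.6 to 36635.8), and in 0 of 5 with median centring. Cardiomyocyte genes were higher in 3 of 6 (0.58, sums of 12826.9 to 14801.8 against 11996.0 to 18132.3), while Myh6 was not well above background, and cartilage genes in 1 of 5 (0.20, sums of 5837.4 to 6146.9 against 4919.3 to 5659.6). Mesothelial genes had a median of 0.48 with 0 of 4 called (sums of 822.8 to 916.1 against 585.1 to 661.5), but 1 of 4 was higher with an offset of 0 and 3 of 4 with the scanner software's ratio. None of these lists had a member that was lower in the arch by the rule. In the other lists 0 genes were called, with medians of −0.17 for macrophages (4 genes), 0.02 for fibroblasts (6), −0.02 for endothelium (5), 0.00 for skeletal muscle (5) and 0.04 for neurons and Schwann cells (5).

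**Figure D4:**
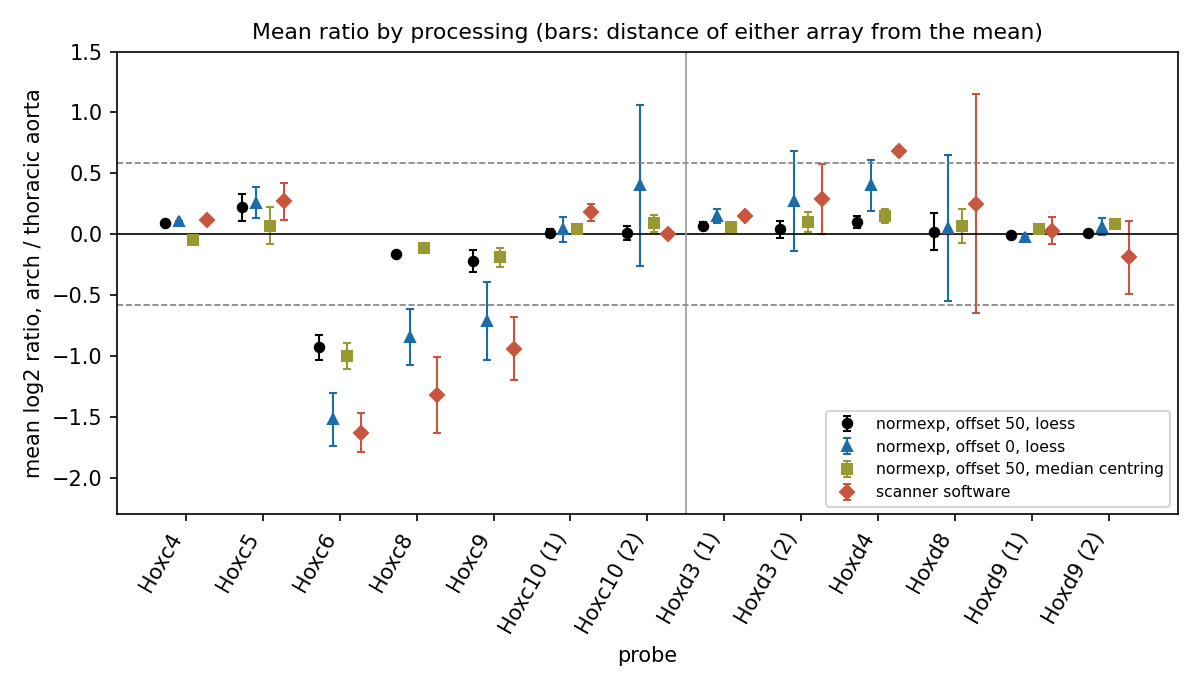
Mean log2 ratio of arch over thoracic aorta for the 13 probes under 4 ways of processing, with bars for the distance of either array from the mean and dashed lines at 1.5-fold. Hoxc6 ranges from −0.93 to −1.63 and stays below the line throughout. The dim probes of Hoxc8 (−0.11 to −1.32), Hoxc9 (−0.19 to −0.94) and Hoxd4 (0.10 to 0.68) also move between settings. The widest bar is that of Hoxd8 with the scanner software (0.9).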

How the data were processed

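Per the submitters' processing notes, Feature Extraction 9.1.1.1 (Agilent) read the arrays. The scanner files, as deposited, hold spot and local background signal as an intensity per dye, and a log10 ratio of processed Cy5 over Cy3, per the file headers. The authors' value table matched that log10 ratio with the arch as numerator for 99.9% of features per array (tolerance 1e-06), with medians of 0, which is how its scale, centring and direction were found. The dyes named in the labels set the direction. The array files name no build.

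From the intensities, background was corrected by normexp (offset 50) and ratios normalised by loess in limma 3.58.1 (R 4.3.3), with control spots at weight 0. Outlier spots (20 and 4) were left out, array 2 was turned, and log10 ratios were converted to log2. A probe was kept (30520 of 41150) if 1 region or both were well above background on each of the arrays, and a gene took its brightest kept probe. Symbols came from RefSeq (GRCm38.p6). The rule was tested on simulated dye-swap arrays whose changed spots had mean net signals above 50 units, so dimmer members were not covered. Their noise was assumed, with no dye bias in the signals and no difference between animals. The simulation therefore says little about errors on the real arrays, and no result here rests on it. The text names all members with every probe, and from each list at most the 4 genes whose ratios were farthest from 0. One gene that this rule picks is not reported here. The members and lists were chosen with earlier results of these data known. Precision is limited by the number of arrays.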

Additional observations from a re-analysis of the deposited data

How the results depend on the processing

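The count of 1 member lower and 0 higher in the arch held with median centring. It held too with an offset of 0, which enlarges ratios and so is no check on the Hoxc6 call. It was also 1 and 0 without a filter on dim probes, with a filter on both regions, with the mean of kept probes, with a 1.3-fold rule and on each array alone, settings that could not remove Hoxc6, which has 1 probe, is well above background throughout and passes on both arrays. The scanner software's ratios and the value table each gave 2 lower, Hoxc6 and Hoxc9, and 1 higher, Hoxd4, against 0.599% and 0.711% of all genes, and a 2-fold rule gave 0 lower. Over all genes, 49 were lower and 55 higher. These counts became 104 and 117 at offset 0, 128 and 152 for the scanner software and also for the authors' values, 75 and 28 after median centring, 15 and 9 under the 2-fold rule, and 112 and 134 under the 1.3-fold rule. Leaving out either array gave 62 to 67 lower and 72 to 81 higher. Of all calls 52.9% were higher in the arch, and after median centring 27.2%. The means of Hoxc5 and Hoxd3 were above 0 and those of Hoxc6 and Hoxc9 below 0 in every setting that measured them. With median centring, however, Hoxc5 turned sign between the arrays (0.22 and −0.08). Hoxc4, Hoxc10 and Hoxd8 were each below 0 in 1 setting. The mean of Hoxd4 stayed above 0, but its probe was kept through the arch signal alone, which favours that sign. All settings use the same arrays. Dim signal limits every member but Hoxc4, Hoxc5 and Hoxc6. No paired analysis was possible because the arrays repeat the same pools.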
